A study of Bos taurus with 30 samples.

Results

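Transcript levels in the cervix of 4 heifers killed at the onset of oestrus (Oestrus) were compared with those of 6 heifers killed 24 h after removal of a progesterone device (CIDR+24h). These 10 animals were taken, by the stage in their labels, from a series of 30 Limousin heifers at 6 stages. All had carried an intravaginal progesterone device (CIDR, 1.94 g) for 8 days. A prostaglandin F2α analogue (0.5 mg) was injected 1 day before the device came out, and only animals seen in oestrus were used. The other 20 heifers, called on below for levels in animals outside the comparison, were killed 12 h after device removal (CIDR+12h, 6 heifers), 12 h after onset (Oestrus+12h, 4 heifers), 48 h after onset (Oestrus+48h, 5 heifers) or on day 7 (Luteal, 5 heifers). Each heifer gave 1 library of polyadenylated RNA. How long after device removal the Oestrus heifers came into oestrus is unknown here, and every group had received the device and the prostaglandin analogue, so no untreated animals were part of the comparison.

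Removing the progesterone device after an injection that makes the corpus luteum regress lets progesterone fall, the growing follicle then secretes oestradiol, and the animal comes into oestrus. The cervix is a muscular and collagen-rich canal lined by folded, mucus-secreting epithelium. Under progesterone it holds a thick mucus, and under oestradiol it secretes a copious watery mucus and softens. No hormone was measured here.

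The counts are listed under Ensembl bovine transcript identifiers, and the table of gene names used here matched 0 of the 28054 identifiers. No gene, pathway or cell type could therefore be named, the tissue could not be checked against marker genes, and lists of genes prepared for the cervix could not be applied. Of the 28054 transcripts, 21597 had a count in at least 1 of the 10 heifers and 16940 passed a filter on low counts and were tested. Library totals were 7389981 ± 1707138 counts at Oestrus (SD, n = 4) and 7322750 ± 914866 at CIDR+24h (n = 6), and did not differ in an exact two-sided permutation test over all 210 splits of the heifers (p = 0.986). Levels are given as CPM, counts scaled to library size with TMM factors. The tissue was sampled whole, so a lower level of a transcript cannot be told apart from fewer cells that carry it.

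Differences between the 2 stages were spread over many transcripts and mostly small, and whether single transcripts passed the threshold depended on the test: edgeR, the main test, called none, DESeq2 called 117 and voom with sample quality weights called 2224. At an adjusted p (Benjamini-Hochberg over all 16940 tested) under 0.05, edgeR's quasi-likelihood test called 0 transcripts, or 0%. At an unadjusted p under 0.05 it found 3277, or 19.3% of those tested: 1722 were higher at Oestrus (10.2%) and 1555 lower (9.18%). The smallest adjusted p was 0.134 among those higher and 0.165 among those lower. Within these 2 sets the median log2 fold change (Oestrus minus CIDR+24h) was 0.79 and -0.74. A difference of at least 1 on the log2 scale was found for 527 of the 1722 and for 547 of the 1555, and one of at least 2 for 47 and 134. Most of these largest differences came with overlapping groups. Among all transcripts in which the heifers of the 2 groups did not overlap, only 7 higher and 3 lower reached 2. Over all tested transcripts the median log2 fold change was -0.07, with 90% of transcripts between -1.25 and 0.98. The balance of the 2 directions depended on the scaling: with upper-quartile factors in place of TMM factors, 65.4% of the 3277 transcripts under 0.05 were higher at Oestrus, against 52.5%. With DESeq2 the share was 46.4%, so that lower transcripts were in the majority.

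**Figure D1:**
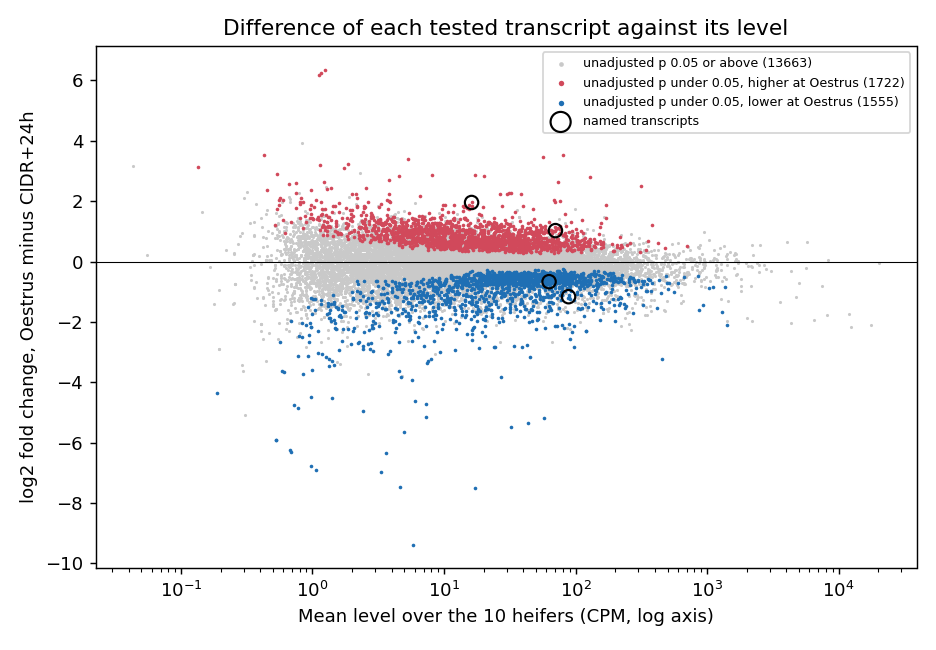
Each point is 1 of the 16940 tested transcripts, placed by its mean level over the 10 heifers (CPM, log axis) and its log2 fold change, Oestrus minus CIDR+24h. Red and blue points are the 1722 higher and 1555 lower transcripts at an unadjusted p under 0.05, and circles mark the 4 transcripts described by name. The largest drop among the blue points was -9.38 and the largest gain among the red points 6.36. Among transcripts in which the groups did not overlap, the extremes were -2.68 and 3.53.

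A count that uses no test, taken on CPM scaled with TMM factors, gave a more one-sided picture. Every Oestrus heifer lay above every CIDR+24h heifer in 606 transcripts (3.58% of those tested), and below every one in 186 (1.10%), together 792 transcripts or 4.68%. The median log2 fold change was 0.85 in the first set and -0.64 in the second. An unadjusted p under 0.05 was also found for 556 of the 606 and for 167 of the 186. The balance of the 606 and 186 moved with the scaling and the heifers. There were 656 higher and 138 lower with upper-quartile factors, and 580 and 211 with DESeq2-type size factors. Without Oestrus replicate 1 the counts were 843 and 475, and without Oestrus replicate 2 they were 1127 and 657. Higher transcripts outnumbered lower ones in each. Counts identical to those of another transcript in all 30 heifers, as occurs where reads are shared, were found for 48 of the tested transcripts, 0 of them among the 792.

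With TMM factors, the direction of the differences varied with the level of the transcript. Among 1808 transcripts that averaged at least 100 CPM over all heifers, 10.7% were lower at Oestrus at an unadjusted p under 0.05 and 4.20% higher. Among 5594 transcripts between 1 and 10 CPM the order was the opposite, with 5.85% lower and 10.5% higher. In the 8877 transcripts between 10 and 100 CPM the 2 shares were 11.3% lower and 11.5% higher. Among the 661 transcripts under 1 CPM they were 4.69% lower and 5.60% higher. Shares by level were not taken with other factors, although the balance of directions over all transcripts moved with the scaling. The 100 most abundant transcripts of the 20 heifers outside the comparison took 22.2% ± 3.12 of the counts at Oestrus (SD, n = 4) and 26.96% ± 5.23 at CIDR+24h (n = 6), a difference within the spread between heifers (exact permutation p = 0.138, adjusted p = 0.276 over 6 measures of the libraries). Of these 100, 66 had a negative and 34 a positive log2 fold change. Their median was -0.22, near the -0.21 of all 1808 transcripts at 100 CPM or above, where all tested transcripts had -0.07. The groups overlapped in every one of the 100, and over all tested transcripts only 4.68% did not overlap.

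The transcripts named below are those with the smallest p in each direction, with a mean of at least 5 CPM in 1 of the groups, leaving out any that correlated above 0.99 with one already taken. They were chosen in the same heifers, so their differences lie at the upper end of what this comparison gave.

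ENSBTAT00000010616 was at 75.5, 70.0, 108 and 152 CPM in Oestrus replicates 1 to 4. In the 6 CIDR+24h heifers its lowest level was 33.1, its median 51.4 and its highest 58.1 CPM. The groups did not overlap, and replicates 3 and 4 stood above the other 2 Oestrus heifers. The means were 101 ± 37.5 CPM (SD, n = 4) and 49.7 ± 8.84 CPM (n = 6), a log2 fold change of 1.02 ± 0.192 (SE, edgeR adjusted p = 0.134).

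ENSBTAT00000010727 was at 9.09, 9.41, 34.5 and 64.0 CPM in Oestrus replicates 1 to 4, and between 4.41 and 11.5 CPM (median 7.34) in the CIDR+24h heifers. Only replicates 3 and 4 lay above the CIDR+24h range, while replicates 1 and 2 lay inside it. The log2 fold change was 1.96 ± 0.374 (SE, edgeR adjusted p = 0.134), and the SD at Oestrus was 89.0% of the mean against 30.6% at CIDR+24h. That SE draws on the spread of all 30 heifers and does not measure the spread of the 4 Oestrus heifers. In a fit of only the 10 heifers compared, the log2 fold change was 1.94 (edgeR adjusted p = 0.247). With voom without weights it was 1.49 (adjusted p = 0.163). A further 2 tested transcripts correlated above 0.99 with ENSBTAT00000010727 over the 30 heifers. The correlation used CPM without logs, where the heifers at 34.5 and 64.0 CPM weigh most. Whether the 2 transcripts are separate signals was not tested.

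ENSBTAT00000007892 was lower at Oestrus, at 56.7, 45.5, 44.8 and 38.8 CPM in replicates 1 to 4. At CIDR+24h it ranged from 61.5 to 88.8 CPM with a median of 71.9. The groups did not overlap, although the gap between the lowest CIDR+24h heifer and the highest Oestrus heifer was only 1.08-fold. The means were 46.5 ± 7.48 CPM (SD, n = 4) and 73.8 ± 12.2 CPM (n = 6), a log2 fold change of -0.67 ± 0.142 (SE, edgeR adjusted p = 0.165). Its relative spread was alike in both groups, with an SD of 16.1% of the mean at Oestrus and 16.5% at CIDR+24h.

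ENSBTAT00000015922 was at 52.0, 63.2, 51.3 and 36.2 CPM in Oestrus replicates 1 to 4, against a lowest, median and highest level of 54.7, 113 and 165 CPM at CIDR+24h. The overlap came from CIDR+24h replicate 1, whose 54.7 CPM lay below the 63.2 CPM of Oestrus replicate 2. The other 5 CIDR+24h heifers were at or above 98.1 CPM. The log2 fold change was -1.16 ± 0.256 (SE, edgeR adjusted p = 0.165).

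**Figure D2:**
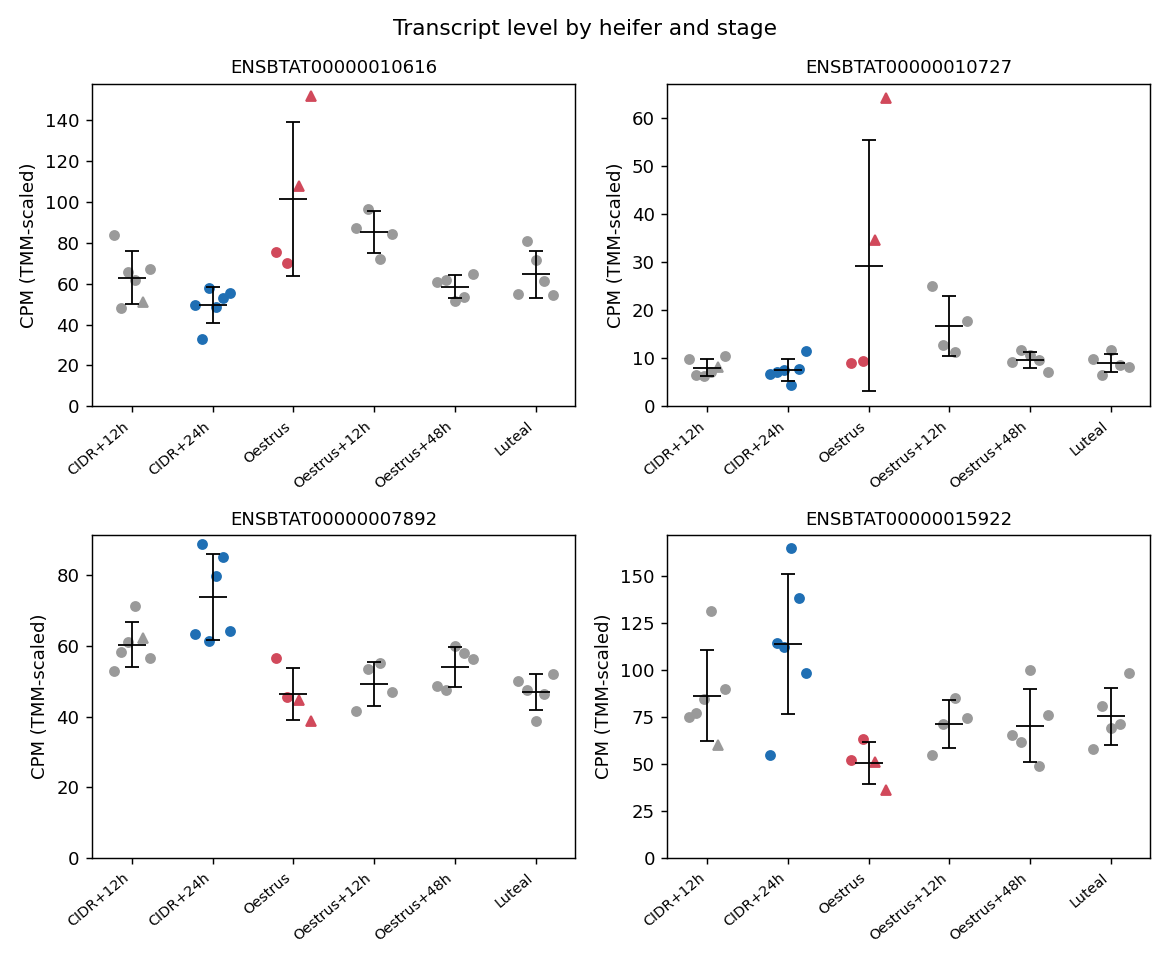
Level of the 4 named transcripts (CPM scaled with TMM factors) in each of the 30 heifers, by stage, with Oestrus in red, CIDR+24h in blue and the other stages in grey. Triangles are heifers with 2 digits before the hyphen of their animal number, and bars give the mean and SD of each stage. ENSBTAT00000010727 is high at Oestrus only in the 2 heifers drawn as triangles, while ENSBTAT00000007892 is lower in all 4 Oestrus heifers than in any CIDR+24h heifer.

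In the other stages the 4 transcripts took different courses. At Oestrus+12h, ENSBTAT00000010616 averaged 85.2 ± 10.2 CPM (SD, n = 4), nearer its level at Oestrus than that at CIDR+24h. It averaged 58.5 ± 5.67 CPM at Oestrus+48h (n = 5), 63.0 CPM at CIDR+12h and 64.6 CPM at Luteal, so its lowest stage mean was at CIDR+24h (49.7 CPM). Its highest levels at CIDR+12h (84.0 CPM) and Luteal (80.7 CPM) lay above Oestrus replicates 1 and 2. ENSBTAT00000010727 averaged 16.7 ± 6.15 CPM at Oestrus+12h (n = 4) and 9.64 ± 1.65 CPM at Oestrus+48h (n = 5). Each Oestrus+12h heifer, the lowest at 11.3 CPM, lay above both Oestrus replicates 1 and 2. The means of this transcript were 8.05 CPM at CIDR+12h and 8.95 CPM at Luteal. ENSBTAT00000007892 had its highest stage mean at CIDR+24h (73.8 CPM) and its lowest at Oestrus (46.5 CPM), with 60.4 CPM at CIDR+12h and between 47.0 and 54.2 CPM at the other 3 stages. ENSBTAT00000015922 was lowest at Oestrus (50.7 ± 11.1 CPM, n = 4) and highest at CIDR+24h (114 ± 37.3 CPM, n = 6), with means between 70.5 and 86.2 CPM elsewhere. These comparisons across stages were not tested.

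Of the 4 Oestrus heifers, replicates 3 and 4 have animal numbers with 2 digits before the hyphen, while all 6 CIDR+24h heifers and Oestrus replicates 1 and 2 have 1 digit. Whether heifers numbered alike share a herd or batch is not stated, and values are given for each kind of number. In the transcripts higher at Oestrus, the 1-digit Oestrus heifers lay above the CIDR+24h mean by a median of 0.67 log2 and the 2-digit heifers by 0.87. In those lower at Oestrus the medians were -0.61 and -0.77. The members were chosen with all 4 heifers, so these medians describe the sets and do not test them. The 2-digit heifers lay farther from CIDR+24h than the 1-digit heifers in 68.8% of the higher and 66.5% of the lower transcripts, where over all tested transcripts they lay farther up in 49.8% and farther down in 50.2%.

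When the 3 heifers of the series with 2-digit numbers were left out, the 2 Oestrus heifers that remained gave 1479 transcripts at an unadjusted p under 0.05, 904 higher and 575 lower, and edgeR called 0 (smallest adjusted p = 0.583). The log2 fold change of ENSBTAT00000010616 was then 0.57 and that of ENSBTAT00000010727 was 0.32, while ENSBTAT00000007892 kept -0.50 and ENSBTAT00000015922 -0.96. Without the 1-digit Oestrus heifers, edgeR called 9 transcripts, 6 higher and 3 lower, with log2 fold changes of 1.38 for ENSBTAT00000010616 (edgeR adjusted p = 0.00145) and 2.71 for ENSBTAT00000010727 (adjusted p = 2.57e-05). That fit was chosen after the values of these heifers were seen, and in it the numbering and the stage cannot be told apart. The 1 CIDR+12h heifer with a 2-digit number, replicate 5, was at 8.26 CPM of ENSBTAT00000010727, inside the range of its stage (6.21 to 10.5 CPM without it). For ENSBTAT00000015922, in contrast, that heifer was the lowest of its stage, at 60.1 CPM against 74.7 to 131 CPM.

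The counts depended on single heifers as well. Without Oestrus replicate 4, 1559 transcripts had an unadjusted p under 0.05 and the smallest adjusted p was 0.548. edgeR called 4 transcripts without Oestrus replicate 1 and 4 without Oestrus replicate 2, all higher at Oestrus, and 0 without any 1 of the other 8 heifers. ENSBTAT00000010616 and ENSBTAT00000010727 were called in both of those fits. The 792 transcripts without overlap became 1628 without CIDR+24h replicate 1, and 1318, 1784 and 1310 without Oestrus replicates 1, 2 and 3, where fewer heifers leave less room for overlap.

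Most of the difference between these 10 heifers did not follow stage. The root mean square log2 difference over the tested transcripts had a median of 1.15 in the 24 pairs of 1 Oestrus and 1 CIDR+24h heifer, 1.17 in the 15 pairs within CIDR+24h and 1.05 in the 6 pairs within Oestrus. The closest pair of all was CIDR+24h replicate 1 with Oestrus replicate 1, at 0.559, nearer than any of the 21 pairs within a group. For 4 of the 10 heifers the nearest heifer was of the other stage.

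The first principal component of log2 CPM held 40.1% of the variance and set CIDR+24h replicates 1, 2 and 6 and Oestrus replicate 1 apart from CIDR+24h replicates 3 and 5 and Oestrus replicate 2. It did not separate the stages (exact permutation p = 0.852, adjusted p = 0.986 over the 6 measures). The second held 25.8% and ran from CIDR+24h replicate 4, at a score of -103, to Oestrus replicate 4, at 92.2. The mean score was 43.5 ± 41.3 at Oestrus (SD, n = 4) and -29.0 ± 38.4 at CIDR+24h (n = 6, exact two-sided permutation p = 0.00952), and this missed the threshold after adjustment over the 6 measures (adjusted p = 0.0571). CIDR+24h replicate 1, at 1.35, lay above Oestrus replicate 2, at -2.58, and the other 5 CIDR+24h heifers lay below every Oestrus heifer. The same 2 end heifers had the highest and the lowest share of counts in their 10 most abundant transcripts, 23.6% and 6.87%. The part of that share in the component was not tested. With both 2-digit Oestrus heifers omitted the exact permutation p was 0.143. It was 0.0635 without CIDR+24h replicate 2, 0.0952 without CIDR+24h replicate 5 and 0.0714 without Oestrus replicate 4. Each omission refitted the component and left fewer splits, which raises the smallest p that can be reached.

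**Figure D3:**
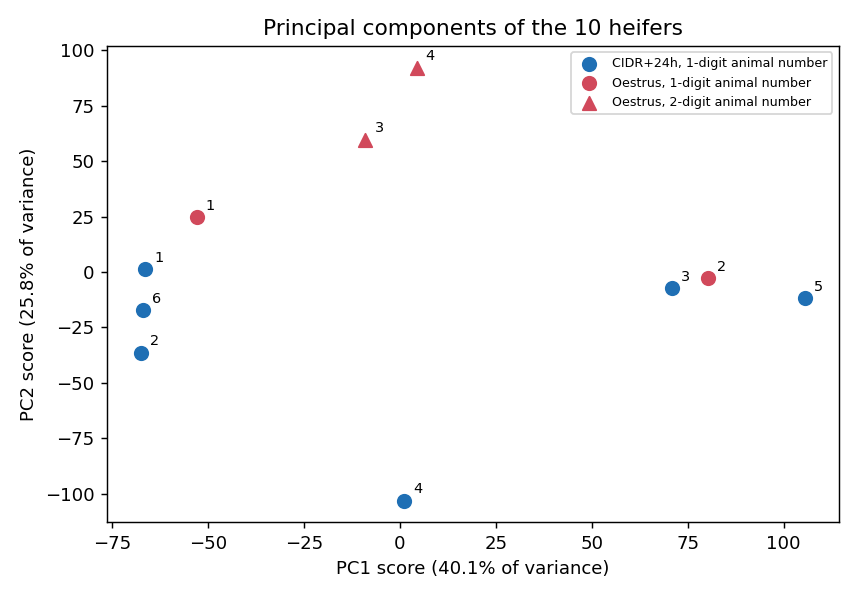
Scores of the 10 heifers on the first (40.1% of variance) and second (25.8%) principal components of log2 CPM over 16940 transcripts, with CIDR+24h in blue, Oestrus in red, triangles for 2-digit animal numbers and the replicate number beside each point. The stages mix along the first component, and along the second the Oestrus heifers lie higher, apart from replicate 2 at -2.58, which CIDR+24h replicate 1 exceeds.

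CIDR+24h was the more variable group on the measures below. None was corrected for group size, and a median SD from 4 heifers tends to fall below one from 6. The median SD of log2 CPM between heifers was 0.545 at CIDR+24h (n = 6) and 0.468 at Oestrus (n = 4), and 38.5% of the tested transcripts varied more at Oestrus than at CIDR+24h. More than 50% of the summed CPM of the 10 heifers lay in a single heifer for 252 tested transcripts, and that heifer was CIDR+24h replicate 4 for 123 of them. Among transcripts counted at CIDR+24h and at 0 in all Oestrus heifers, 19 had more than 20 counts in total, and in 16 of these over 90% came from 1 heifer, with replicates 4 and 6 the highest in 9 each. Conversely, 0 transcripts counted at Oestrus and at 0 in all CIDR+24h heifers exceeded 20 counts. No transcript had a count in all 6 CIDR+24h heifers and 0 in all Oestrus heifers, and the 3 with the opposite pattern had at most 7 counts in total. A presence or absence shared by a whole group was thus not detectable above a few counts.

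The 3277 transcripts were followed in 10 heifers outside the contrast, 4 at Oestrus+12h and 6 at CIDR+12h. These heifers were 12 h later and 12 h earlier in their course than the groups compared. They entered the shared estimate of spread behind the p values, so they were not fully independent of the choice of transcripts. Of the 1722 transcripts higher at Oestrus, 1464 (85.0%) had a positive log2 fold change at Oestrus+12h against CIDR+12h, where 45.5% of all tested transcripts did. Of the 1555 lower at Oestrus, 1302 (83.7%) had a negative one, against 54.5% of all tested. The differences were smaller in these heifers, with medians of 0.25 and -0.22, against 0.79 and -0.74 at the stages that chose the transcripts. An unadjusted p under 0.05 in the same direction was reached by 101 of the 1722 (5.87%, with 1.92% of all tested) and by 158 of the 1555 (10.2%, with 2.60% of all tested), and edgeR called 0 of 16940 transcripts in this second comparison. The shares are given without a test, because the transcripts are not independent of each other. Without CIDR+12h replicate 4 the share with the same direction over the 3347 transcripts under 0.05 in that fit was 77.2%, and without CIDR+12h replicate 5, the heifer with a 2-digit number, it was 89.0%.

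**Figure D4:**
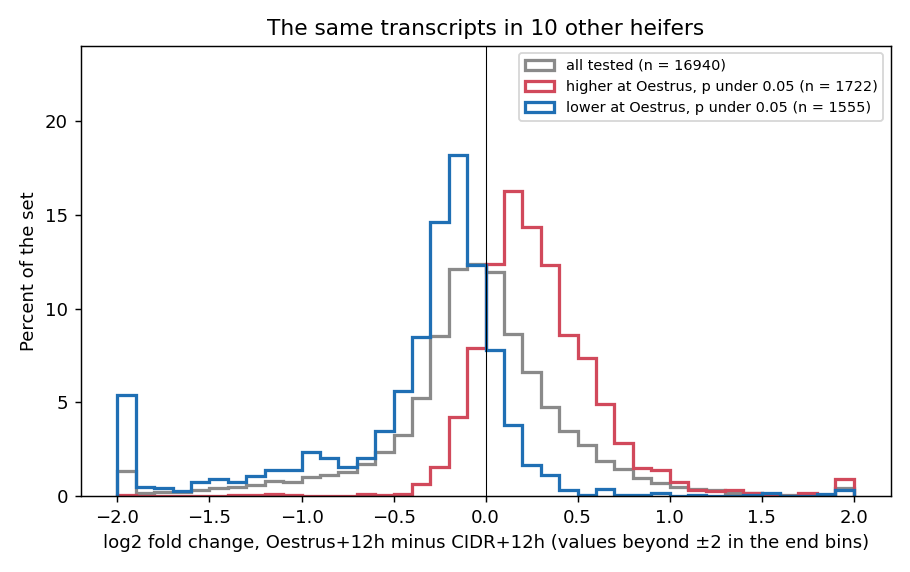
Log2 fold change at Oestrus+12h against CIDR+12h, in 10 heifers outside the comparison, for all 16940 tested transcripts (grey), the 1722 higher at Oestrus (red) and the 1555 lower (blue), each as percent of its set in bins, with values beyond 2 in either direction in the end bins. The red outline lies mostly to the right of 0 (85.0%) and the blue mostly to the left (83.7%).

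The 4 named transcripts kept their direction there. ENSBTAT00000010616 had a log2 fold change of 0.43 ± 0.193 (SE, edgeR adjusted p = 0.985), ENSBTAT00000010727 of 1.05 ± 0.372 (adjusted p = 0.813), ENSBTAT00000007892 of -0.29 ± 0.141 (adjusted p = 0.985) and ENSBTAT00000015922 of -0.27 ± 0.248 (adjusted p = 0.985). None passed the threshold.

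The level of the 2 sets in each heifer was summarised as the median deviation from the 30-heifer mean of each transcript. For the higher set it lay between 0.08 and 0.37 log2 in the 4 Oestrus+12h heifers, which were outside the contrast that chose the set. At CIDR+12h it lay between -0.33 and 0.54. The top value belonged to replicate 5, the 1 heifer of that stage with a 2-digit number, and the next highest was 0.05. Among the Oestrus heifers it was 0.40 and 0.30 in the 1-digit replicates 1 and 2, and 0.35 and 0.73 in the 2-digit replicates 3 and 4. Whether the level follows the numbering was not tested. At Oestrus+48h the higher set ranged from -0.53 to 0.16. At Luteal it ranged from -0.24 to 0.69, and Luteal replicate 3, at 0.69, stood above 3 of the 4 Oestrus heifers. The lower set mirrored this, with a value of -0.54 in Luteal replicate 3 and between -0.27 and -0.09 at Oestrus+12h. In CIDR+12h replicate 5 it was -0.23, the lowest of that stage. A high level of the first set together with a low level of the second was thus not limited to heifers near oestrus.

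**Figure D5:**
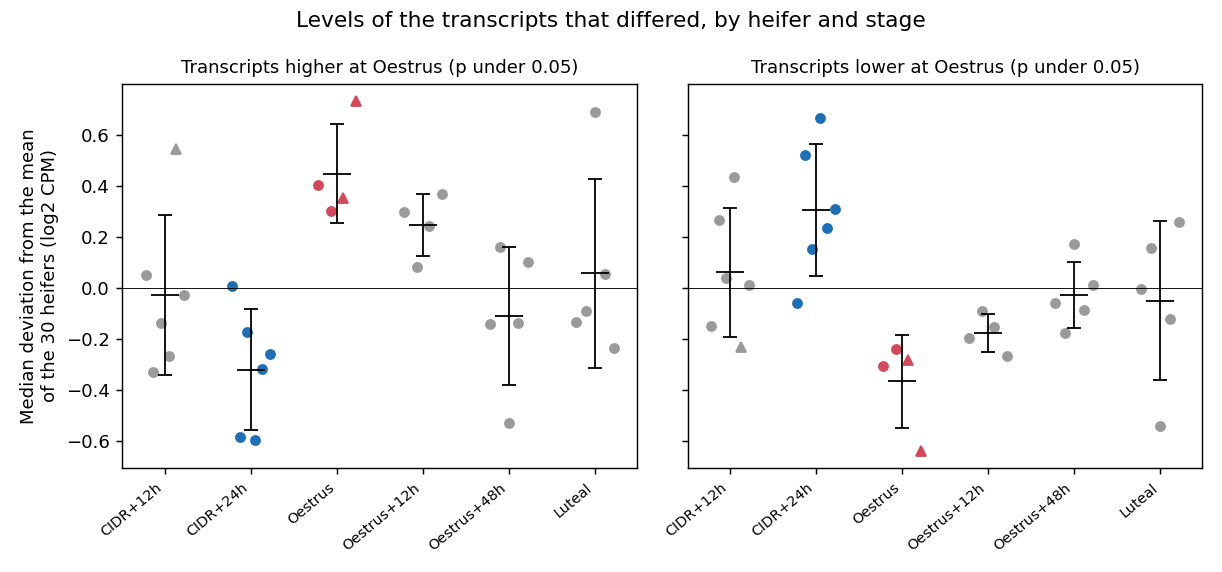
Median deviation from the 30-heifer mean (log2 CPM) of the 1722 transcripts higher (left) and the 1555 lower (right) at Oestrus, 1 point per heifer by stage, triangles for 2-digit animal numbers, bars for the mean and SD. Oestrus and CIDR+24h (red, blue) gave the contrast that chose the transcripts, and all 30 heifers gave its estimate of spread. In the stages in grey all 4 Oestrus+12h heifers lie above 0 on the left. So do Luteal replicate 3, at 0.69, and CIDR+12h replicate 5, with a 2-digit number, at 0.54.

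Other tests on the same counts differed in how many transcripts they called. DESeq2 called 117 of 22621 transcripts (0.517%), 44 higher and 73 lower at Oestrus. All 117 had an unadjusted p under 0.05 with edgeR, where 19.3% of all tested transcripts did. The groups did not overlap in 29 of the 44 and 25 of the 73, against 3.58% and 1.10% of all tested. DESeq2 chose the 117 from the same counts of the same heifers, so these values do not test its calls. In 19 of the 73 lower transcripts over 50% of the summed CPM lay in 1 heifer. The same held for 1 of the 44 higher and for 252 of all 16940 tested. Voom with sample quality weights called 2224 (13.1%), 1219 higher and 1005 lower, and voom without weights called 0, with 3159 at an unadjusted p under 0.05. The weighted fit weighted Oestrus replicate 3 by 2.34 and replicate 4 by 1.66, but replicate 1 by 0.796 and replicate 2 by 0.461. All 44 higher and 55 of the 73 lower transcripts of DESeq2 were also called by the weighted fit. ENSBTAT00000010616 had an adjusted p of 0.00167 with DESeq2 and 0.00895 with weighted voom, and ENSBTAT00000010727 had 0.00260 and 0.0171. ENSBTAT00000007892 had 0.00260 and 0.00932, and ENSBTAT00000015922 had 0.00671 and 0.0124.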

How the data were processed

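Per the labels' protocols, polyadenylated RNA of whole cervix was sequenced as single reads, and the submitters' processing notes name CASAVA version 1.0. Not given in the sources used here are the aligner, counter, genome build, annotation and strand. The authors deposited raw counts per transcript, which were used unscaled. Reads shared by isoforms or overlapping transcripts may enter several identifiers.

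Counts were filtered with filterByExpr (minimum count 10, total 15) to 16940 transcripts holding 99.9% of counts, scaled with TMM factors and fitted over all 30 heifers with edgeR 4.0.16 (R 4.3.3, robust quasi-likelihood, 1 mean per stage). A prior count of 2 entered log2 CPM. Standard errors came from the fold change and F statistic. Simulated counts were used only to check that the main fit returned median fold changes near those set. The check put no condition on the number of transcripts called. Replicates are separate heifers, numbered in accession order. Chi-square over degrees of freedom was at least 20.5 in the 21 replicate pairs within Oestrus and CIDR+24h, so none of these was a repeated library. Pairs of 1 Oestrus and 1 CIDR+24h heifer, the closest pair of all among them, were not checked, nor were pairs of the other stages. Group sizes at Oestrus+12h and Oestrus+48h are exchanged in the protocol, and the sample labels were kept.

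The comparison and lists were chosen with earlier results of these data known. Names followed the fallback of the naming rule, at most 2 identifiers per direction, because identifiers matched no gene name. Of the 6 library measures the library total was a planned test, and the others, principal components included, and the distances were not. Alternatives were other size factors, other filters, DESeq2 1.42.0, limma 3.58.1 voom, sva 3.50.0, fits of fewer heifers and omission of each heifer.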

Additional observations from a re-analysis of the deposited data

Results flagged for a closer look

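Of 58 sets of values examined, each of 1 measure in the heifers of 1 stage, 3 held a value far from the others for the size of the set. Chance alone flags about 1 set in 20, and 3 of 58 is near that share. The sets share heifers and are not independent. CIDR+12h replicate 6, outside the comparison, had the largest library, at 19628122 counts, while that stage otherwise ranged from 8819190 to 11075868. CIDR+24h replicate 4 had a score of -103.079 on the second principal component, against -36.3 to 1.35 in the other 5. CIDR+24h replicate 2 had the lowest level of ENSBTAT00000010616, 33.1 CPM against 48.8 to 58.1 CPM in the other 5. Without it, the log2 fold change of that transcript was 0.93.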

How the results depend on the processing

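The 0 transcripts called by edgeR became 117 with DESeq2, 2224 with weighted voom and 9 without the 1-digit Oestrus heifers, and 0 to 4 when 1 heifer was left out. The 3277 at an unadjusted p under 0.05 became 5525 with weighted voom and 1479 without heifers with 2-digit numbers, and 1559 to 4040 when 1 heifer was left out. The 792 transcripts without overlap became 1719 without the 2-digit heifers and 3605 without the 1-digit Oestrus heifers, and 813 to 1784 when 1 was left out, where fewer heifers leave less room for overlap. The share with the same direction at Oestrus+12h against CIDR+12h, 84.4%, was 82.2% without a count filter and 76.5% without the 2-digit heifers, and 77.2% to 89.0% when 1 was left out. The difference in the second component, 72.5, was 55.2 without the 2-digit heifers, and 56.7 to 88.3 when 1 was left out, with exact permutation p from 0.00794 to 0.0952. The component was refitted each time, so these differences are not scores on the same axis. The cause of these shifts was not tested. The 4 named transcripts kept their sign under every setting run.

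The higher share among transcripts under 0.05, 52.5%, was 61.2% without a filter and 63.8% with at least 10 CPM in at least 4 heifers, but 46.4% with DESeq2, 46.3% without Oestrus replicate 1, 44.7% without Oestrus replicate 2 and 44.6% without the 1-digit Oestrus heifers. It was 49.1% without CIDR+24h replicate 3 and 49.9% with weighted voom. Sums by gene were not run, since no table maps these transcripts to genes. Chosen after seeing the data were the fits without the 1-digit Oestrus heifers, the omissions of single Oestrus+12h and CIDR+12h heifers and of the 2-digit heifers for the share with the same direction, the other filters for the named transcripts and all settings for the component. No paired analysis was possible because the labels give no replicate numbers and each heifer was sampled once. Depth limits transcripts under 1 CPM, whose median SE was 0.784 log2 against 0.277 between 10 and 100 CPM.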

Other observations

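In the 20 heifers outside the comparison, the level of the transcripts lower at Oestrus tended to follow the share of counts in the 10 most abundant transcripts of a library, which ranged from 9.31% to 21.4%. Pearson's r was 0.486 (permutation p = 0.0292, adjusted p = 0.0583 over 2 relations) and Spearman's rho 0.349 (permutation p = 0.131, adjusted p = 0.262). Without the 2 heifers farthest from the median share r was 0.337, without the heifer with a 2-digit number it was 0.466, and with stage means removed 0.432. For the transcripts higher at Oestrus r was -0.278 (permutation p = 0.234, adjusted p = 0.234) and rho -0.203 (permutation p = 0.388, adjusted p = 0.388), and r was -0.134 without the 2 farthest heifers, -0.228 without the 2-digit heifer and -0.254 with stage means removed. Neither relation passed the threshold after adjustment.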
